A study of Bos taurus with 96 samples.

Results

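SLC22A16 (identifier ENSBTAG00000010507), 1 gene of the 24616 in the count files, was followed through liver and muscle of 16 Holstein cows. The gene was selected on its liver genotype values, since the study lists it as lower in the liver of Fert+ cows at each of its 3 time-points. The liver genotype values below are therefore a description of the contrast that selected the gene, and no test is given for them or for their change over time. The relation between liver and muscle levels of a cow belongs to the same choice and is also given without a test. Time-points, tissues and the muscle genotype contrast were not the values that selected the gene, and they were tested. Earlier results of these data were known when the tests were chosen.

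The 8 Fert+ cows had breeding values for calving interval that stand for good fertility, and the 8 Fert- cows had values that stand for poor fertility, within limits set on the breeding value for milk. They were lactating dairy cows of mixed parity kept as a single herd, without any treatment, and none was bred in the lactation that was sampled. Each cow gave a puncture biopsy of liver and a core of semitendinosus muscle in late pregnancy (LP), around the day after calving in early lactation (EL) and in mid lactation (ML). RNA sequencing of the biopsies gave 96 libraries, 8 for each combination of tissue, time-point and genotype. Genetic merit is a property of the animal, so the genotype groups are not a contrast of a single locus.

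SLC22A16 is a plasma membrane transporter of the organic cation family that carries carnitine into cells. Carnitine binds long-chain fatty acids so that they can pass into mitochondria for oxidation. Liver can make carnitine from precursors, with BBOX1 as the enzyme of the last step, whereas skeletal muscle takes it up from blood. Cows mobilise body fat around calving, and both tissues then receive more fatty acids.

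Library totals ranged from 14966847 to 26358063 read pairs in liver and from 15279337 to 22018740 in muscle, and SLC22A16 received 3 to 478 of them in liver and 43 to 352 in muscle. Levels are given as CPM, the count of a gene scaled to a common library total, with TMM factors (a correction for the makeup of each library) within a tissue. A log2 fold change of 1 is a doubling, and adjusted p-values are corrected over all genes tested. The 8 hepatocyte marker genes summed to 74556 CPM or more in every liver library and to 182 CPM or less in every muscle library, and the 9 measured skeletal muscle marker rows summed to less than 1 CPM in every liver library. Of the 48 liver libraries, 46 matched the muscle libraries of their own cow best over 23 genes that differed stably between cows in muscle, with r of at least 0.612. The library labelled Fert- cow 829 at LP matched Fert+ cow 3434 (r = 0.884, own cow -0.0897), and the library labelled Fert+ cow 3434 at EL matched Fert- cow 829 (r = 0.785, own cow 0.154). Neither SLC22A16 nor DDO was among the 23 genes. These libraries are called at odds with their labels, and liver results are given with and without them. The labelled time-points of Fert- cow 426 in liver were also in doubt: on a score of 100 genes that separated LP (mean at 0) from EL (mean at 1), its LP library had the highest value at LP (1.25, median -0.191) and its EL library the lowest at EL apart from the library labelled cow 3434 (0.0247, median 1.09). The library labelled cow 3434 at EL scored -0.364, below the other EL libraries and below the LP median, so its time-point was in doubt too. Values without cow 426 are given for the contrasts of LP and EL. In addition, 13 libraries (8 of liver and 5 of muscle) held counts for 11 or more of 19 genes that were near 0 elsewhere, and they are called counted otherwise below. In liver 6 of the 8 were from Fert+ cows, and in muscle all 5 were from the Fert- cows 164 and 419.

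Liver levels of SLC22A16 were lower in Fert+ than in Fert- cows at each time-point, with overlap. At LP the Fert+ cows ranged from 0.805 to 7.69 CPM with a median of 2.61, and the Fert- cows from 1.03 to 21.0 CPM with a median of 9.95. All 8 Fert+ cows lay below the Fert- median, and 4 Fert- cows (cows 164, 419, 426 and 1179) lay above every Fert+ cow. The lowest Fert- value was that of the library labelled cow 829, and without it the Fert- values began at 2.59 CPM.

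**Figure D1:**
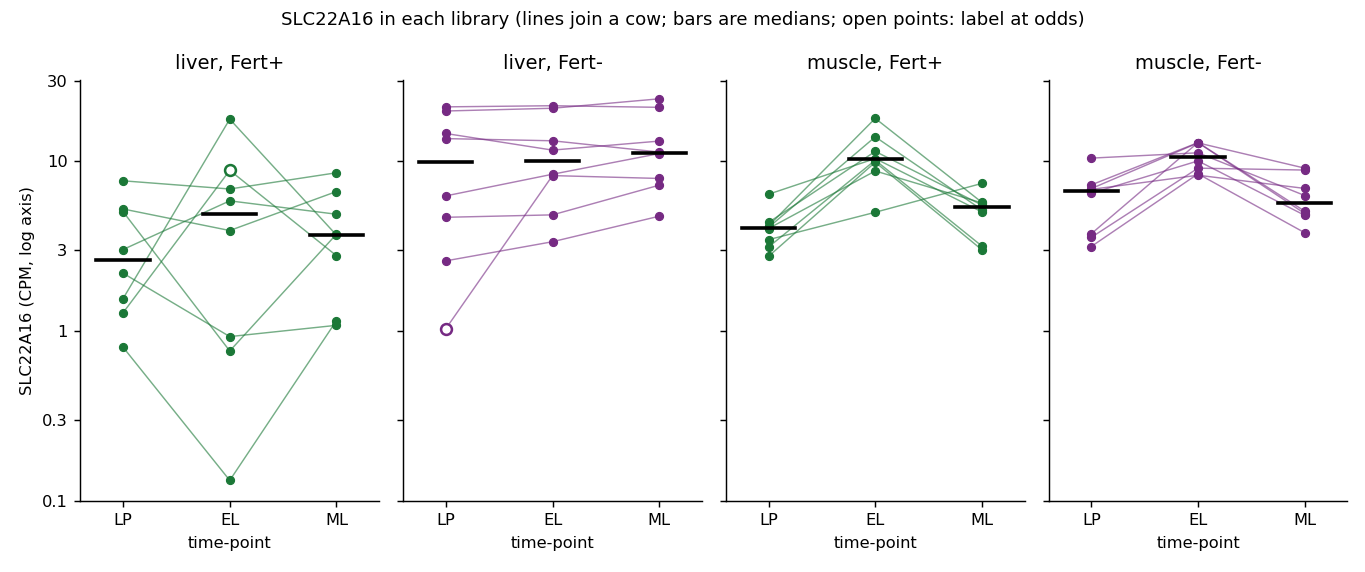
SLC22A16 in each of the 96 libraries, in CPM on a log axis, against time-point, with 1 panel for each tissue and genotype. Lines join the libraries of a cow, black bars are medians, and open points are the 2 libraries at odds with their labels. Liver medians are 2.61, 4.89 and 3.70 CPM in Fert+ cows and 9.95, 10.04 and 11.2 CPM in Fert- cows at LP, EL and ML, and both muscle panels peak at EL.

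At EL the liver values of the Fert+ cows spread most, from 0.132 CPM (3 read pairs, cow 3397) to 17.8 CPM (cow 3847), with a median of 4.89. The Fert- cows ranged from 3.36 to 21.3 CPM with a median of 10.04. Only cow 3847 among the Fert+ cows exceeded the Fert- median, and its values at the other time-points were 1.55 CPM at LP and 3.68 CPM at ML. That library is among those counted otherwise, and its 5 measured neutrophil marker rows summed to 102 CPM, against a median of 6.60 CPM over the liver libraries at EL, where cow 164 reached 282 CPM and cow 982 reached 98.4 CPM. The part of either property in the SLC22A16 value of cow 3847 was not tested. The library labelled cow 3434, at 8.86 CPM, lay close to the EL and ML values of cow 829 (8.26 and 7.94 CPM) and above its own cow's LP and ML values of 1.28 and 2.78 CPM. Its time-point was in doubt as well as its cow.

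At ML the Fert+ cows ranged from 1.08 to 8.58 CPM with a median of 3.70, and the Fert- cows from 4.76 to 23.4 CPM with a median of 11.2. Every Fert+ cow lay below the Fert- median, 5 of them below every Fert- cow, and no library of this time-point in liver was at odds with its label. In such bulk tissue, fewer cells of a type and less RNA per cell cannot be told apart.

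In liver the fitted log2 fold change of Fert+ over Fert- at LP was -1.63 (SE 0.572). It was -1.05 (SE 0.641) at EL and -1.63 (SE 0.409) at ML. The 3 values correspond to levels 3.09-fold, 2.06-fold and 3.09-fold lower. Without the libraries at odds with their labels it was -1.81 (SE 0.507) at LP and -1.17 (SE 0.680) at EL. Without the libraries counted otherwise it was -2.14 (SE 0.635) at LP, -1.74 (SE 0.714) at EL and -1.51 (SE 0.429) at ML, and without cow 426 it was -1.55 at LP and -1.04 at EL. Across all genes, the edgeR quasi-likelihood test called 0 of 12872, 13047 and 13235 genes in these contrasts (0% each) at an adjusted p below 0.05. Unadjusted p-values were below 0.05 for 842, 1530 and 1640 genes. DESeq2 called 0, 6 and 65 genes, and the exact test with a common dispersion called 306, 301 and 279. These counts describe the contrasts that chose SLC22A16 and are no evidence about it.

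**Figure D2:**
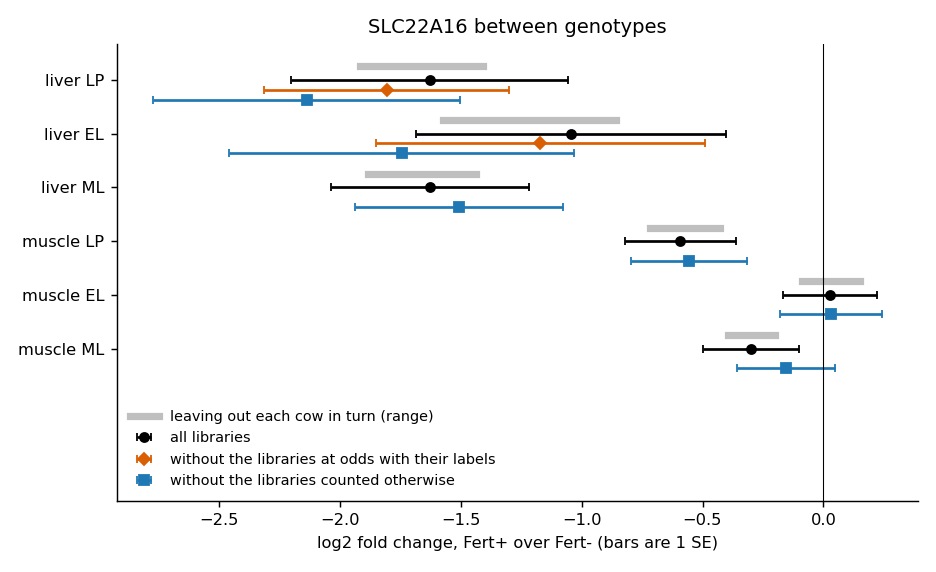
The log2 fold change of SLC22A16, Fert+ over Fert-, for each tissue and time-point, with bars of 1 SE, for all libraries and for both reduced sets. Grey bars span the values when each cow was left out in turn. All liver values lie below 0, between -2.14 and -0.86, whereas the muscle values at EL lie on both sides of 0.

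Liver levels of a cow were related between time-points. The Fert- cows 164 and 1179 had the highest liver levels at LP, EL and ML, at 21.0, 21.3 and 20.8 CPM and at 19.8, 20.6 and 23.4 CPM. The lowest cows were in the Fert+ group, with 0.805, 0.132 and 1.15 CPM in cow 3397. Over the 16 cows, r of log2(CPM + 1) was 0.842 for LP and ML, 0.777 for EL and ML and 0.540 for LP and EL, and rho was 0.844, 0.676 and 0.529. The genotype difference that chose the gene adds to these values, which are therefore given without a p.

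On values less the genotype means, r was 0.793 for LP and ML (rho = 0.841, permutation p = 0.00027, adjusted p = 0.00162 over 6 pairs of time-points), 0.693 for EL and ML (rho = 0.612, permutation p = 0.00327, adjusted p = 0.00981) and 0.380 for LP and EL (rho = 0.456, permutation p = 0.146, adjusted p = 0.292). Without the libraries at odds with their labels these were 0.857, 0.750 and 0.525, the last with an adjusted p of 0.111 (permutation test, 14 cows), and without cow 426 they were 0.798, 0.692 and 0.379. Within the 8 Fert- cows r was 0.848 for LP and ML and 0.963 for EL and ML (exact permutation p = 0.00823 and 0.000372, adjusted p = 0.0247 and 0.00223). Within the 8 Fert+ cows r was 0.792 and 0.570 (exact permutation p = 0.0213 and 0.143, adjusted p = 0.128 and 0.428). For LP and EL r was 0.798 within the Fert- cows and 0.0793 within the Fert+ cows (exact permutation p = 0.0192 and 0.850, adjusted p = 0.0385 and 0.850). Without the 2 cows farthest from the median on the x axis, r less genotype means was 0.835 for LP and ML (permutation p = 0.00031, adjusted p = 0.00186), 0.734 for EL and ML (permutation p = 0.00318, adjusted p = 0.00954) and 0.364 for LP and EL (permutation p = 0.201, adjusted p = 0.402). After genotype and time-point means were removed, cow accounted for a share of 0.561 of the variance in liver. The median was 0.141 over the 12305 genes with a mean of at least 1 CPM. The choice of the gene can favour a high share, so that median is no like-for-like comparison. Without the cows holding a library at odds with its label the share was 0.660.

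In muscle SLC22A16 was highest at EL. At LP the 16 muscle libraries ranged from 2.76 to 10.5 CPM with a median of 4.13, at EL from 5.02 to 17.9 CPM with a median of 10.3, and at ML from 3.01 to 9.13 CPM with a median of 5.36. All 16 cows were higher at EL than at LP, and 15 of 16 were lower at ML than at EL, cow 756 of the Fert+ group being the exception.

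SLC22A16 was up-regulated in muscle from LP to EL by a log2 fold change of 1.12 (SE 0.154, 2.17-fold, adjusted p = 5.6e-08, edgeR quasi-likelihood test), in a contrast where 53.9% of 12675 genes were called and 29.1% were called upward. It was down-regulated from EL to ML, a log2 fold change of -0.92 (SE 0.153, adjusted p = 1.31e-06), where 59.4% of genes were called. From LP to ML the log2 fold change was 0.19 (SE 0.156, adjusted p = 0.53), where 6.08% of genes were called. The contractile transcripts moved with the same time-points: the 9 skeletal muscle marker rows summed to between 129819 and 211551 CPM at LP, between 16491 and 189132 CPM at EL and between 184508 and 264804 CPM at ML. Other marker sums moved too: at LP, EL and ML the medians were 91.9, 118 and 103 CPM for endothelial, 0.621, 1.22 and 0.460 CPM for neutrophil, 6.38, 8.31 and 5.55 CPM for macrophage and 260, 149 and 212 CPM for fibroblast markers. The part of these markers in the SLC22A16 values was not tested.

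Muscle levels of the genotypes overlapped at all time-points. At LP the Fert+ cows ranged from 2.76 to 6.41 CPM with a median of 4.05, and the Fert- cows from 3.15 to 10.5 CPM with a median of 6.67. All 8 Fert+ cows lay below the Fert- median and 5 Fert- cows lay above all Fert+ cows, yet the log2 fold change of -0.59 (SE 0.229) had an adjusted p of 0.64 (unadjusted p = 0.0179), and 0% of 11954 genes were called, with 800 at an unadjusted p below 0.05 and 27 called by DESeq2. With the exact test at a common dispersion the adjusted p of SLC22A16 at LP was 0.0568, in a contrast where that test called 214 genes. At EL the medians were 10.3 and 10.7 CPM, and the log2 fold change was 0.03 (SE 0.194, adjusted p = 0.976, 0.00831% of 12035 genes called, 1426 at an unadjusted p below 0.05 and 119 by DESeq2). At ML the medians were 5.36 and 5.69 CPM, and the log2 fold change was -0.30 (SE 0.197, adjusted p = 0.741, 0% of 12001 genes called, 918 at an unadjusted p below 0.05 and 10 by DESeq2), and -0.15 (adjusted p = 0.904) without the libraries counted otherwise. In the LP muscle libraries the 2 endothelial marker rows, from 5 markers listed, had sums of 67.8 to 87.1 CPM in Fert+ and 96.8 to 138 CPM in Fert- cows. How large a share of all genes has ranges apart like these was not computed. Marker names come from the study's tables of DE genes, so the rows are not free of the genotype contrasts. The ranges of the other marker sums overlapped between genotypes at LP. Fert+ and Fert- medians at LP were 199081 and 170421 CPM for skeletal muscle, 278 and 206 CPM for fibroblast and 7.80 and 5.37 CPM for macrophage markers. They were 0.540 and 0.686 CPM for neutrophil and 5.68 and 7.37 CPM for adipocyte markers. At EL the skeletal muscle medians were 100478 and 51294 CPM. The part of any of these markers in the genotype values of SLC22A16 was not tested. These are the same cows as in the liver contrast, so the muscle values are no independent check of it. The genotype by time-point interaction in muscle had an adjusted p of 0.862 (0% of 12675 genes called, 857 at an unadjusted p below 0.05 and 15 by DESeq2).

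No time-point contrast of SLC22A16 passed the test in liver. The log2 fold change over both genotypes was 0.44 (SE 0.407, adjusted p = 0.59) from LP to EL, -0.16 (SE 0.404, adjusted p = 0.779) from EL to ML and 0.27 (SE 0.408, adjusted p = 0.718) from LP to ML, where 3.24%, 38.2% and 12.5% of 13815 genes were called. Liver levels rose or fell from LP to EL about equally often, in 9 and 7 cows. The LP to EL value was 0.29 (SE 0.406, adjusted p = 0.724) without the libraries at odds with their labels, 0.48 (adjusted p = 0.531) without cow 426 and 0.12 (adjusted p = 0.935) without cow 3847.

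No difference of SLC22A16 between the tissues passed the test at LP or ML, and the call at EL depended on the fit. On CPM scaled over all 96 libraries, the order of the 6 means was muscle EL at 11.2 (SD 3.06), liver EL at 7.98 (SD 6.29), liver ML at 7.74 (SD 6.05), liver LP at 6.49 (SD 6.26), muscle ML at 6.14 (SD 1.86) and muscle LP at 5.48 (SD 2.30), with n = 16 each. Liver had the wider spread of cows at each time-point. The log2 fold change of liver over muscle was 0.18 (SE 0.312, adjusted p = 0.583) at LP and 0.28 (SE 0.309, adjusted p = 0.384) at ML, beside medians over all genes of 0.20 and 0.22, in contrasts where 87.2% and 86.5% of 14613 genes were called. At EL it was -0.56 (SE 0.302, adjusted p = 0.0779, 87.8% of genes called), and muscle was higher in 13 of 16 cows. With each cow as a replicate block the EL difference was -0.79 (SE 0.272, adjusted p = 0.00609), and without the libraries at odds with their labels it was -0.63 (SE 0.296, adjusted p = 0.0427). The test was also passed without the libraries counted otherwise (-0.91, adjusted p = 0.0072) and when cow 164, 1179 or 3847 was left out (adjusted p = 0.0412, 0.0496 and 0.014). The rise from LP to EL was larger in muscle than in liver by 0.74 (SE 0.434) on the log2 scale, which did not pass the test (adjusted p = 0.218, 25.7% of genes called). The fall from EL to ML differed by -0.84 (SE 0.432, adjusted p = 0.122, 35.9% of genes called and 20.7% called downward), and by -1.40 (adjusted p = 0.0126) without the libraries counted otherwise. From LP to ML the difference was -0.10 (SE 0.439, adjusted p = 0.944), where 7.32% of genes were called and 3.86% downward.

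Cow levels in liver and muscle ran loosely together. Over the mean of 3 time-points, liver spanned 0.712 to 4.47 and muscle 2.45 to 3.37 in log2(CPM + 1), so a cow's muscle level varied over a much narrower range. Pearson's r between the tissues was 0.524 and Spearman's rho 0.488 (n = 16), and r was 0.543 without the cows of the libraries at odds with their labels. It was 0.359 on values less the genotype means, 0.639 within the Fert+ cows and 0.135 within the Fert- cows. For single time-points r was 0.528 (LP), 0.370 (EL) and 0.330 (ML). The points hold libraries labelled with the same cow and share genotype, so these values are a description and carry no p. The Fert+ cow 3397 was lowest in both tissues on this scale. The Fert- cow 982 was high in muscle (9.34 CPM on average) and low in liver (3.57 CPM), whereas the liver leaders 164 and 1179 averaged 7.36 and 7.13 CPM in muscle. Between time-points within muscle, r was 0.226 for LP and EL, 0.394 for LP and ML and -0.099 for EL and ML (permutation p = 0.404, 0.132 and 0.716, adjusted p = 0.484, 0.199 and 0.716 over 6 pairs of time-points in liver and muscle).

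**Figure D3:**
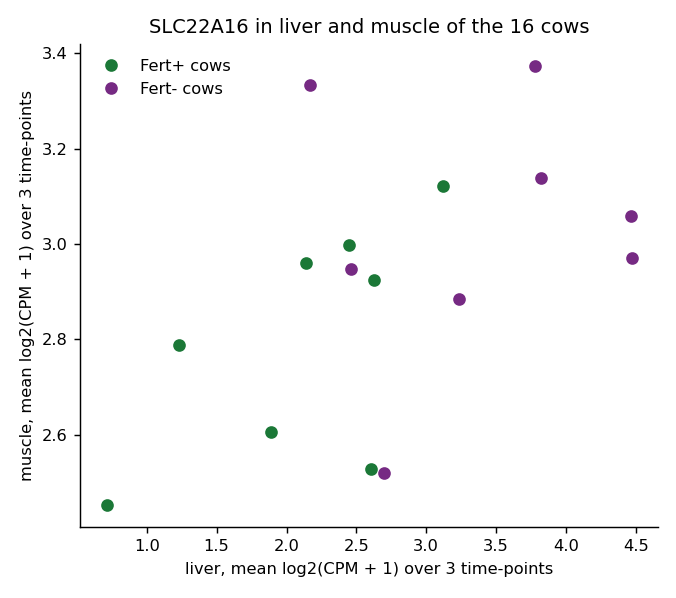
Mean log2(CPM + 1) of SLC22A16 over 3 time-points in muscle against that in liver, with 1 point for each of 16 cows. Liver means span 0.712 to 4.47 and muscle means 2.45 to 3.37, and r is 0.524.

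The gene whose liver level followed SLC22A16 most closely over the 16 cows was DDO (ENSBTAG00000033367), D-aspartate oxidase, a peroxisomal enzyme that degrades D-aspartate. Of 12304 genes with a mean of at least 1 CPM, it had the highest r over cow means of log2(CPM + 1), at 0.849 (rho = 0.797). In the RefSeq gene table of assembly ARS-UCD2.0, DDO is also the annotated gene next to SLC22A16, and the models do not overlap there. The files count reads on UMD3.1, and the kit does not mark strand. The next genes in that ranking were ENSBTAG00000020152 (r = 0.811), ENSBTAG00000012654 (r = 0.790), ENSBTAG00000008369 (r = 0.760) and FABP3 (r = 0.747), a fatty acid binding protein. FABP3 had a mean of 1.15 CPM, near the minimum, and the study lists it as lower in Fert+ liver at ML. It was not among the first 5 genes once genotype means were removed. With genotype means removed, DDO came eighth (rank 8, r = 0.730), behind ENSBTAG00000017437 (r = 0.787), ENSBTAG00000004695 (r = 0.771), ENSBTAG00000000495 (r = 0.760), ENSBTAG00000016950 (r = 0.757) and ENSBTAG00000000773 (r = 0.744) among others. Without the cows of the libraries at odds with their labels DDO came first again at r = 0.863, and rank 6 at r = 0.736 with genotype means removed. The nearest other protein-coding genes in that table were CDK19, AMD1 and GTF3C6 on one side and METTL24 and CDC40 beyond DDO. They had no identifier here, so r was not computed for them. Genes with an identifier lay at protein-coding places 9 (TRAF3IP2), 13 (FAM229B) and 30 (RWDD1). On the side of DDO they lay at places 19 (SNX3) and 74 (GABRR2). Their r was 0.499 for TRAF3IP2, 0.428 for FAM229B, 0.357 for RWDD1 and -0.143 for SNX3. GABRR2, at a mean of 0.435 CPM, was below the minimum level.

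DDO is in the study's liver lists as well, so its liver genotype values are also a description. At LP the Fert+ cows ranged from 3.22 to 19.4 CPM with a median of 11.8, and the Fert- cows from 5.03 to 42.7 CPM with a median of 30.3. At EL the Fert+ libraries ranged from 1.19 to 36.9 CPM with a median of 7.02, and the Fert- libraries from 20.1 to 40.0 CPM with a median of 30.6. At ML the Fert+ cows ranged from 3.46 to 19.3 CPM and the Fert- cows from 23.8 to 39.3 CPM, with no overlap, in a contrast where the quasi-likelihood test called 0% of genes. The share of all genes with ranges apart in this way was not computed. DDO was also picked by its liver r with SLC22A16, which was itself chosen on this contrast.

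The lowest Fert- value at LP and the highest Fert+ value at EL were those of the libraries at odds with their labels. Without them the Fert- cows began at 15.3 CPM at LP, where the groups still overlapped, and at EL the Fert+ cows reached 19.9 CPM, below all Fert- cows. For EL, too, the share of all genes with ranges apart was not computed. The log2 fold change of DDO in liver was -1.17 (SE 0.407), -1.41 (SE 0.541) and -1.23 (SE 0.270) at LP, EL and ML, and -1.33 (SE 0.339) and -1.98 (SE 0.483) at LP and EL without these libraries. Within genotypes, r between SLC22A16 and DDO over liver cow means was 0.926 in the Fert+ cows and 0.602 in the Fert- cows (n = 8 each). For single time-points r in the Fert- cows was 0.790 at LP but 0.131 at EL and 0.189 at ML. In the Fert+ cows it was 0.625, 0.733 and 0.835. All of these include the libraries at odds with their labels. Cow 3847 at EL stood apart, with 17.8 CPM of SLC22A16 but 5.09 CPM of DDO.

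**Figure D4:**
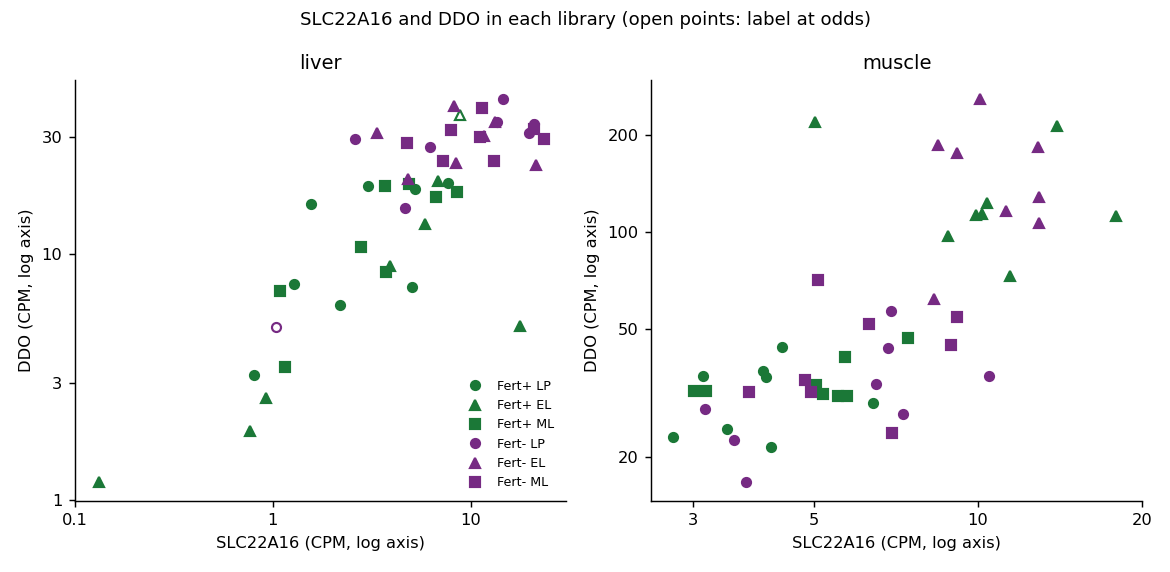
DDO against SLC22A16 in each library, in CPM on log axes, for liver (left) and muscle (right), with colour for genotype and shape for time-point. In liver the cow means give r = 0.849. In muscle both genes are highest at EL, and the cow means give r = 0.251.

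In muscle r between SLC22A16 and DDO over cow means was 0.251, and it was 0.458, -0.150 and 0.386 at LP, EL and ML. Each cow had more of both genes at EL than at LP. DDO ranged from 16.7 to 56.8 CPM at LP, from 61.8 to 258 CPM at EL and from 23.7 to 71.0 CPM at ML. It rose by a log2 fold change of 2.13 (SE 0.174, 4.37-fold, adjusted p = 6.62e-13) from LP to EL and then fell by 1.86 on the log2 scale (SE 0.173, adjusted p = 2.6e-12) to ML. In liver its log2 fold change from LP to EL was -0.00 (SE 0.309, adjusted p = 0.997), and -0.37 (SE 0.274, adjusted p = 0.441) without the libraries at odds with their labels. The rise in muscle exceeded that in liver by 2.16 (SE 0.361, adjusted p = 2.42e-06). The muscle genotype contrasts of DDO had adjusted p-values of 0.956, 0.815 and 0.722 at LP, EL and ML.

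Symbols could be paired with identifiers for only part of the carnitine genes, because the names come from the study's tables of DE genes. Beside SLC22A16 these were 3 other transporters of carnitine and related compounds, 2 synthesis enzymes, 2 acyltransferases, 9 genes of mitochondrial fatty acid oxidation and 3 PPARA targets, 19 in all. SLC22A5, the main carnitine importer of most tissues, was not analysed here, nor were SLC25A20, CPT1A, CPT2, CRAT and TMLHE.

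The 2 synthesis enzymes with an identifier were both called higher in liver at each time-point, while TMLHE, the other listed, was not analysed. BBOX1, the last enzyme of carnitine synthesis, ranged from 182 to 338 CPM in liver at LP and from 0 to 0.0568 CPM in muscle, and ALDH9A1, an aldehyde dehydrogenase of an earlier step, from 530 to 818 CPM in liver and from 19.4 to 31.6 CPM in muscle. CPT1B, the muscle form of the enzyme that loads fatty acids onto carnitine, was lower in liver by a log2 fold change of -2.50 (SE 0.216, adjusted p = 6.18e-19) at LP. At LP 15 of the 19 genes were higher in liver and 3 were lower, in a contrast where 48.4% and 38.8% of genes were. At EL the counts were 15 and 2, beside 46.9% and 40.9% of genes, and at ML 14 and 3, beside 48.4% and 38.1%. SLC22A16, with no difference called at LP or ML, belonged to neither set.

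From LP to EL in muscle, CPT1B, ACADVL and PDK4 rose and CROT, ACADS, ECI1 and ETFA fell among 15 carnitine genes tested, shares near the background, where 29.1% of genes were called upward and 24.8% downward, and the median log2 fold change was -0.15 beside 0.02 over all genes. With the replicate block 3 rose and 6 fell. CPT1B rose by a log2 fold change of 0.72 (SE 0.086, adjusted p = 2.29e-09), and CROT, a peroxisomal acyltransferase, fell by 0.38 on the log2 scale (SE 0.105, adjusted p = 0.0023). From EL to ML, 5 of the 15 rose and 2 fell, CPT1B and PDK4 being those that fell, where 28.5% of genes rose and 31% fell. From LP to ML, ECI1 rose and PDK4 fell, where 2.46% of genes rose and 3.62% fell.

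In liver, 0 of 19 carnitine genes were called from LP to EL by the quasi-likelihood test, against 3.24% of all genes (2.27% upward and 0.977% downward). The fit with the replicate block called 1 (HADH, lower), and DESeq2 called 1 that was a different gene. From EL to ML, 6 rose and 5 fell, where 18.1% of genes rose and 20.2% fell. Those that rose included SLC16A9, a carnitine efflux transporter (log2 fold change 0.54, SE 0.192, adjusted p = 0.0248) and ALDH9A1 (0.36, SE 0.129, adjusted p = 0.0232), and those that fell included CPT1B (-1.25, SE 0.282, adjusted p = 0.000661). From LP to ML, 4 fell (ACADVL, HADHA, HADHB and ANGPTL4) and none rose, where 5.05% of genes fell and 7.41% rose. BBOX1 and CROT were not called in any liver time-point contrast, with log2 fold changes between -0.34 and 0.30.

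The genotype contrast of these 19 genes in liver had median log2 fold changes of -0.12, -0.38 and -0.01 at LP, EL and ML, beside medians of 0.00, 0.00 and -0.02 over all genes. Because their names come from the study's tables of DE genes, the list is not free of the genotype contrasts. The genotype values of its genes are therefore a description, and the medians over all genes are no like-for-like comparison. SLC16A9 and SLC22A3 lay nearer to 0 than SLC22A16 at each time-point: SLC16A9 had log2 fold changes between -0.04 and 0.27, and SLC22A3, at a mean below 1 CPM, between 0.04 and 0.42. The lowest values in the list were those of CPT1B, at -0.97 (SE 0.454) at LP and -1.79 (SE 0.393) at EL, PDK4 at -1.16 (SE 0.558) at LP and ANGPTL4 at -1.003 (SE 0.538) at ML. In muscle none of the 14 genes tested was called between genotypes at any time-point, where 0%, 0.00831% and 0% of genes were.

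**Figure D5:**
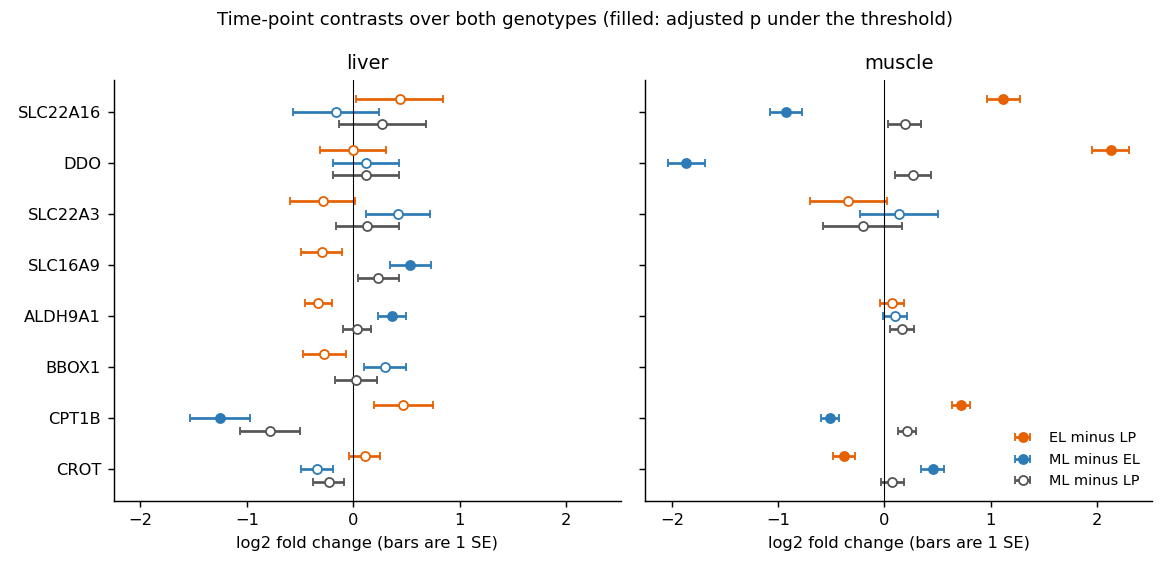
Log2 fold changes between time-points, averaged over genotypes, for SLC22A16, DDO and 6 carnitine genes (transporters, synthesis enzymes and acyltransferases), in liver (left) and muscle (right), with bars of 1 SE and filled points for adjusted p-values below 0.05. SLC22A16 and DDO move up from LP to EL in muscle (1.12 and 2.13) and back from EL to ML (-0.92 and -1.86), and neither has a filled point in liver.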

How the data were processed

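The authors sequenced TruSeq v2 libraries on an Illumina HiSeq 2000, used Trimmomatic for trimming and STAR for alignment to UMD3.1 and kept proper pairs, and the deposited counts are read pairs per Ensembl gene from featureCounts, without normalization. The kit does not mark strand. CASAVA 1.8 is named in the submitters' processing notes. Cow, tissue, time-point and genotype came from the labels. Left unused were 96 count columns of series-wide tables, which carry no sample name, and the authors' tables of fold changes and p-values were read for gene names alone (2269 identifiers).

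Here CPM was computed with TMM factors, and edgeR 4.0.16 (quasi-likelihood F test with robust fitting after filterByExpr, both directions, Benjamini-Hochberg over all genes, threshold 0.05) was run under R 4.3.3 with limma 3.58.1. Genotypes were fitted over 16 libraries, time-points over 48 and tissues over 96. Alternatives were RLE factors, no gene filter, DESeq2 1.42.0, a common-dispersion exact test, a single fit per tissue, each cow as a replicate block, and leaving out each cow or the 13 libraries counted otherwise. Leaving out the libraries at odds with their labels, the time-point by tissue contrasts, the fits of DDO and the further correlations on values less genotype means were chosen after seeing the data. Correlations of cow levels used Python 3.11.15, scipy 1.17.1, numpy 2.4.6 and pandas 2.3.3, with two-sided permutation tests of 100000 resamples for 16 cows and exact tests within 8. Their p-values are printed for muscle alone, because the liver values are not independent of the choice of the gene.

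The gene, the lists and the tests were chosen with earlier results of these data known. One gene of the lists is not reported by name here. The named genes were SLC22A16, the carnitine transporters, synthesis enzymes and acyltransferases, the 5 genes most like SLC22A16 over liver cow means with and without genotype means, and the 3 nearest annotated genes with an identifier on each side; fatty acid oxidation genes and PPARA targets named beside counts were named after their values were seen. Libraries of the same number come from the same cow, and after removal of group means 39 of 48 liver pairs and 41 of 48 muscle pairs of a cow correlated above 0.1. No 2 libraries of a group were alike within counting error (336 pairs, lowest chi-square per gene 18.1). The scripts were tested on simulated data. Markers of T and NK cells had no identifiers, and marker sums of the other lists were computed for each library.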

Additional observations from a re-analysis of the deposited data

Results flagged for a closer look

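In muscle at LP, the Fert+ cow 3445 had 6.41 CPM of SLC22A16, apart from the other 7 Fert+ cows, which ranged from 2.76 to 4.37 CPM. It was the only one of 24 groups of 8 libraries (SLC22A16 and DDO, by tissue, time-point and genotype) with a library that far from the others, and chance gives such a library in about 1 of 20 groups.

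The time-point changes of DDO differed between the tissues. The change from LP to EL was larger in muscle than in liver by 2.16 on the log2 scale (adjusted p = 2.42e-06, edgeR quasi-likelihood test), and the change from EL to ML differed by -2.03 (adjusted p = 3.78e-06). All 16 cows had more DDO in muscle at EL than at LP, and 6 of 16 had more in liver. Without the libraries at odds with their labels the differences were 2.54 and -2.32.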

How the results depend on the processing

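Under the alternatives, 320 planned values and 90 added after seeing the data kept their direction and their side of the threshold, and 104 planned and 5 added values with no p moved by less than their spread (1.5 times for a count). The first counts include liver r, also less genotype means, and the liver interaction, which are not independent of the choice of the gene. With the replicate block the tissue difference of SLC22A16 at EL was called at -0.79, and 1 carnitine gene was called in liver from LP to EL. DESeq2 called 1 there too, a different gene, and the unblocked test called 0. The replicate block changed no other call of SLC22A16. Without the libraries counted otherwise the tissue difference was -0.91 at EL and -0.0521 at LP, the liver change from EL to ML was 0.35, the tissue difference in that change was -1.40, and r between LP and EL in liver was 0.717. Without the libraries at odds with their labels the tissue difference at EL was -0.63, and that r was 0.685. It was 0.724 on CPM with no log and 0.798 within Fert- cows, but 0.0793 within Fert+ cows and 0.339 without the 2 farthest cows. Within Fert+ cows r in liver was 0.570 for EL and ML and 0.792 for LP and ML. Muscle r for EL and ML was 0.0733 within Fert- cows and 0.0980 without the 2 farthest cows (0.110 less genotype means). Between tissues, r without the 2 farthest cows was 0.728 at LP and 0.0638 at ML; within Fert- cows it was -0.0598 at EL, -0.0729 at ML and 0.135 for cow means, and on CPM with no log it was 0.106 at EL. Without a gene filter, 4 carnitine genes were called in muscle from LP to ML, against 2. The cause of these shifts was not tested.

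Leaving out each cow in turn, the genotype value in muscle at EL ran from -0.09 to 0.15 (below 0 without cow 33, 164 or 3434, at -0.0898, -0.00174 and -0.0317), the liver change from LP to EL from 0.12 (without cow 3847) to 0.58, that from EL to ML from -0.27 to 0.11 (0.11 without cow 3847) and the tissue difference at EL from -0.80 to -0.47. The liver genotype value ran from -1.91 to -1.41 at LP, from -1.58 (without cow 3847) to -0.86 (without cow 3397) at EL and from -1.88 to -1.43 at ML, and the muscle rise from LP to EL from 1.05 to 1.19. Depth limits the lowest liver values most, where SLC22A16 received as few as 3 read pairs.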
